A study of Homo sapiens with 20 samples.

Results

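The mRNAs of 10 genes of the BCL2 family, which sets the threshold for mitochondrial cell death, were examined in WT and CD47- Jurkat T lymphoblasts. MCL1, BCL2, BCL2L1, BCL2A1, BAX, BAK1, BCL2L11, BID, BBC3 and PMAIP1 were chosen by gene symbol, and all 10 were found among the 60719 genes of the gene table, with 94 isoforms in the isoform table. All 10 also passed the low-count filter that left 16327 genes for testing. RNA was sequenced in 20 libraries from 2 human T cell leukemia lines, WT Jurkat and its CD47-deficient somatic mutant JinB8. Each line was sampled at 1, 3 and 6 h on plates coated with anti-CD3 and anti-CD28 (CD3+CD28), on such plates with 1 μg/mL thrombospondin-1 added (CD3+CD28+TSP1), and with TSP1 alone, and untreated cells were sampled at 1 h. Both lines were held in the same serum-free medium with insulin, transferrin, selenite and hydrocortisone. Each condition was sequenced once and the CD47- group is a single mutant line, so loss of CD47 and other differences between the 2 lines cannot be told apart, and p-values measure the spread between libraries that may come from one culture. No untreated library was analysed at 3 or 6 h, so the passage of time and the change of medium and plate cannot be told apart either.

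BCL2 family proteins meet at the outer mitochondrial membrane. The pro-survival members MCL1, BCL2, BCL-XL (encoded by BCL2L1) and A1 (BCL2A1) hold back the effectors BAX and BAK (BAK1), which form pores that release cytochrome c and start the caspase cascade. The BH3-only members BIM (BCL2L11), BID, PUMA (BBC3) and NOXA (PMAIP1) bind the pro-survival proteins or the effectors, with NOXA acting mainly on MCL1 and A1. MCL1 protein is short-lived and follows its mRNA within hours, and T lymphocytes depend on MCL1, BCL2 and BIM for their numbers.

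MCL1 and BCL2L1 are each known for a short splice form that favours death. The bases that the short forms lack are shown because isoform shares of these forms are given further on. The transcripts of the short forms also differ from the long ones at their ends, so the shares do not rest on these bases alone. Capitals mark the bases absent from the short form and lower case the 12 flanking bases on each side, which are intronic except those before the BCL2L1 stretch, where the short form keeps that part of the exon. MCL1 exon 2 lies at chr1:150578232-150578503 with its flanks, minus strand of GRCh38, and its 248 bases are skipped in MCL1-201 (MCL1-S). The 189 bases of BCL2L1 exon 2 that are absent from BCL2L1-202 (BCL-XS) lie at chr20:31721643-31721855 with their flanks, also on the minus strand.
MCL1 exon 2: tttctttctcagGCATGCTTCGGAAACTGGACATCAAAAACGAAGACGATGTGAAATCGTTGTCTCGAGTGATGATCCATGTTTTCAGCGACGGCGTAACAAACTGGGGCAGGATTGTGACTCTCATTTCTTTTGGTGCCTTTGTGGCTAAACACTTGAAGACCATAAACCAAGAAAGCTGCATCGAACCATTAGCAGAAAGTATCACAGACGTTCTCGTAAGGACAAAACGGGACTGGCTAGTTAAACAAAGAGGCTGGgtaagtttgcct
BCL2L1 exon 2 part: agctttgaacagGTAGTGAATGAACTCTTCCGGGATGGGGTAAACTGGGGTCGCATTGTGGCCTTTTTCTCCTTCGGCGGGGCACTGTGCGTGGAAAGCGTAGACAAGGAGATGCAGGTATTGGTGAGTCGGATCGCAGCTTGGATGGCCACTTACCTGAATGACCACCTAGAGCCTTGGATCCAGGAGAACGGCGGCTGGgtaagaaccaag

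Levels are in CPM, a gene's counts relative to the library total after scaling by the TMM method. Differences between conditions are log2 fold changes with their standard error (SE). A gene is called when its adjusted p in the edgeR quasi-likelihood test, with Benjamini-Hochberg adjustment over all 16327 genes, is under 0.05. Totals ranged from 16107921 to 31737616 counts per library. CD47 mRNA itself was lower but present in the mutant, with 124 to 165 CPM against 253 to 372 CPM in WT libraries. The 13 T cell markers summed to between 2062 and 3270 CPM in every library, but TRAC, the T cell receptor alpha constant gene, averaged 185 ± 62.7 CPM in WT against 21.8 ± 5.12 CPM in CD47- (SD, n = 10), and CD28 averaged 45.1 ± 17.0 against 230 ± 17.4 CPM. The 6 B cell markers summed to 35.7 to 56.1 CPM in WT against 6.02 to 14.2 CPM in CD47-, most of it CD79A, while MS4A1 and PAX5 had means of at most 0.125 CPM. Myeloid, fibroblast and epithelial lists summed to at most 13.02 CPM in any library, with PDGFRB (5.83 CPM in CD47- cells) and COL1A1 (4.31 CPM) as their highest means. The part of these differences in the results was not tested. The CD47- library given CD3+CD28+TSP1 at 3 h stands apart, with the lowest total, a TMM factor of 1.20 and a median correlation of 0.981 with the libraries of its line and time, where the other 19 libraries had 0.988 or more. Calls of members that were lost without it are given with and without it.

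MCL1 had the highest mean level of the members in both lines on the scale that divides by transcript length. Its mean level was 153 ± 96.7 TPM (CPM-like, but of counts divided by transcript length) in WT and 93.9 ± 38.8 TPM in CD47- cells (SD, n = 10 libraries). In WT cells the order then ran through BID (24.2 TPM), PMAIP1 (22.8), BCL2L1 (18.3), BCL2 (11.2), BAK1 (9.31), BAX (6.26), BCL2L11 (5.27), BBC3 (1.42) and BCL2A1 (0.897). In CD47- cells PMAIP1 (42.3 TPM) and BID (40.9 TPM) followed MCL1, and BAX (9.84 TPM) stood above BAK1 (8.46 TPM) and BCL2 (8.11 TPM). Lengths were found for 83 of the 94 member isoforms and for 14 of the 23 of BCL2L11, and the rest took the mean length of those found, so close ranks such as BAX above BCL2L11 are uncertain. Most neighbours in this order had overlapping ranges over the 10 libraries of a line. In WT cells the ranges were separate between MCL1 (lowest 56.8 TPM) and BID (highest 32.3 TPM) and between BCL2L11 (lowest 4.21) and BBC3 (highest 3.496). In CD47- cells they were separate between BID (lowest 32.3 TPM) and BCL2L1 (highest 28.9), between BCL2L1 (lowest 13.03) and BAX (highest 11.98), and between BCL2L11 (lowest 3.57) and BBC3 (highest 2.80). At 6 h MCL1 in CD47- cells, at 43.997 to 49.0 TPM, overlapped BID, at 40.0 to 46.6 TPM. MCL1 made up a mean of 89.1% of the summed TPM of the 4 pro-survival members in WT cells at 1 h and 68.6% at 6 h. In CD47- cells its share was 83.1% at 1 h and 69.4% at 6 h.

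Over all 20 libraries MCL1, BCL2, BCL2L1, BAK1 and BCL2L11 were lower and BID and PMAIP1 were higher in CD47- than in WT cells. Thus 7 of 10 members were called, where 40.4% of all genes tested were. The 5 lower and 2 higher members stand beside 20.6% of all genes lower and 19.8% higher. BAX, BCL2A1 and BBC3 were not called. The median log2 fold change was −0.15 over the 10 members and −0.01 over all genes, and −0.52 over the 4 pro-survival members, of which 3 were called and all of those were lower. The calls fell to 4 with the 6 activated pairs alone and to 2 with the 4 unactivated pairs alone, which hold fewer libraries. In activated pairs BCL2L1 (adjusted p = 0.15) and BCL2L11 (0.325) lost their calls with MCL1, and in unactivated pairs BCL2L1 (0.0927), BCL2L11 (0.0583), BAK1 (0.322) and BID (0.089) did, again with MCL1. With the CD47- library given CD3+CD28+TSP1 at 3 h left out, 8 members were called, including BAX (0.39, adjusted p = 0.0238). Over all times the ranges of the lines overlapped for each of the 10 members, where they were separate for 11.5% of all genes. In bulk RNA a smaller share of cells with a transcript and less of it per cell cannot be told apart.

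**Figure D1:**
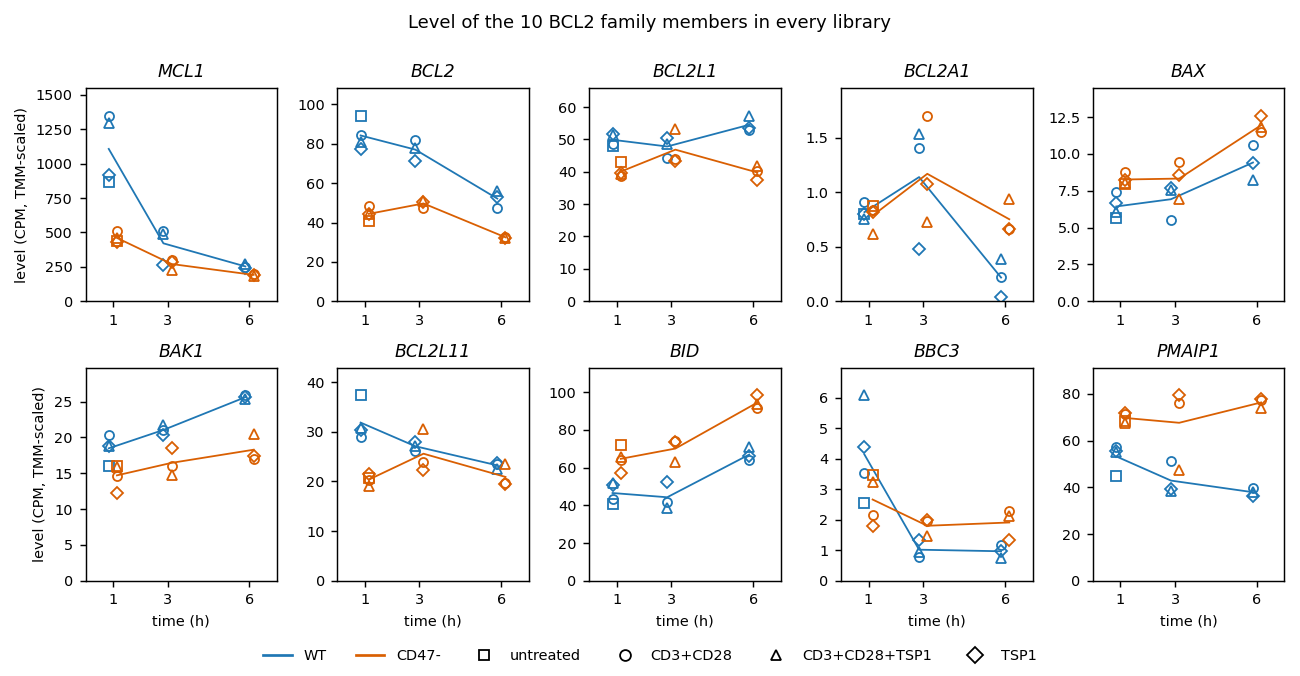
Level of each of the 10 members in CPM (linear axis from 0) against time after plating, with WT in blue, CD47- in orange, 1 symbol per library by treatment and lines through the means of the 4, 3 and 3 libraries at 1, 3 and 6 h. MCL1 fell with time in both lines from a higher level in WT, BCL2 was lower in CD47- at every time, and PMAIP1 fell from 1 to 6 h in WT with no called change in CD47-.

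MCL1, at chr1:150560895-150579738 on the minus strand, was the member with the largest difference in CPM. It overlaps ADAMTSL4 on the other strand and ADAMTSL4-AS1 on its own. At 1 h WT cells had 867 CPM untreated, 920 CPM with TSP1, 1347 CPM with CD3+CD28 and 1293 CPM with CD3+CD28+TSP1. The CD47- cells had 436, 432, 510 and 462 CPM in the same order of treatments. Every CD47- library at 1 h was below every WT library, with 867 CPM as the lowest WT level and 510 CPM as the highest CD47- level. At 3 h the WT levels were 265 CPM with TSP1, 507 CPM with CD3+CD28 and 490 CPM with CD3+CD28+TSP1, and the CD47- levels were 283, 303 and 226 CPM. The lines overlapped at 3 h through the TSP1 libraries, the only matched pair of 10 in which CD47- was above WT. At 6 h the WT libraries had 239, 250 and 268 CPM and the CD47- libraries 191, 197 and 186 CPM, again without overlap.

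The line difference in MCL1 was tested at each time. At 1 h the log2 fold change was −1.27 (SE 0.167, adjusted p = 2.88e-06, edgeR), a 2.41-fold difference, and this held in each of 26 alternatives. At 3 h it was −0.64 (SE 0.191, adjusted p = 0.0101) and at 6 h −0.40 (SE 0.191, adjusted p = 0.0931), which was not called but was in 2 of 26 alternatives, among them the fit with no low-count filter (adjusted p = 0.000306). The narrowing of the gap between 1 and 6 h was itself called, with a line difference in the log2 change of 0.86 (SE 0.252, adjusted p = 0.0232). Over all times the log2 fold change was −0.999 (SE 0.333, adjusted p = 0.0198). The call at 3 h was lost without the WT CD3+CD28 library at 3 h (−0.48, adjusted p = 0.0693), the WT CD3+CD28+TSP1 library at 3 h (−0.50, 0.0659) or the CD47- library that stands apart (−0.50, 0.0587). The call over all times was lost without the WT CD3+CD28 library at 1 h (−0.81, adjusted p = 0.0518) with limma voom after quantile normalization (−0.64, adjusted p = 0.108), in the 6 activated pairs alone (−1.12, adjusted p = 0.0733) and in the 4 unactivated pairs alone (−0.75, adjusted p = 0.322), with adjusted p from 0.000195 to 0.322 over 28 alternatives.

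**Figure D2:**
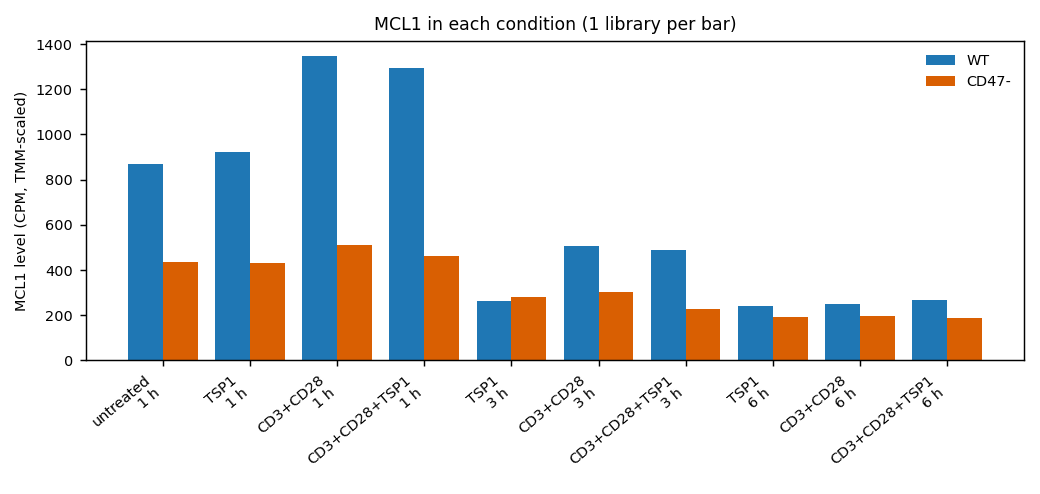
MCL1 level in CPM (linear axis from 0) in each of the 10 conditions, 1 library per bar, with WT in blue and CD47- in orange. The WT bars at 1 h run from 867 to 1347 CPM and the CD47- bars from 432 to 510 CPM, and at 6 h all bars lie between 186 and 268 CPM.

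BCL2, at chr18:63123346-63320128 on the minus strand, encodes the founding member of the family. In WT cells it was at 94.2, 77.6, 84.5 and 80.7 CPM at 1 h (untreated, TSP1, CD3+CD28, CD3+CD28+TSP1), and in CD47- cells at 40.9, 44.4, 48.2 and 44.1 CPM. It was lower in CD47- in 10 of 10 matched pairs, and the ranges of the lines did not overlap at any of the 3 times. Its log2 fold change was −0.92 at 1 h (SE 0.0702, adjusted p = 1.22e-09), −0.63 at 3 h (SE 0.0809, adjusted p = 2.51e-06) and −0.68 at 6 h (SE 0.0820, adjusted p = 9.18e-07). All of these calls were kept in each of the 26 alternatives run. BCL2 overlaps an unnamed gene on each strand.

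BCL2L1 (chr20:31664452-31723989, minus strand) was lower in CD47- cells at 1 and 6 h. The WT range was 44.2 to 57.3 CPM with a median of 51.0, and the CD47- range 37.4 to 53.3 CPM with a median of 40.96, the highest being the library that stands apart. CD47- against WT gave a log2 fold change of −0.32 at 1 h (SE 0.0690, adjusted p = 0.000759) and −0.45 at 6 h (SE 0.0795, adjusted p = 8.86e-05), without overlap at either time, and −0.03 at 3 h (SE 0.0796, adjusted p = 0.774). The gene overlaps BCL2L1-AS1 and ABALON on the other strand, and the strand setting of the counting is not given in the sources used here, so reads of these genes may be included.

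BCL2A1 (chr15:79960892-79971196, minus strand), an NF-κB target in activated lymphocytes, was near the limit of detection. Its counts ran from 1 to 40 per library, and 3 counts correspond to 0.0979 to 0.156 CPM. At 6 h the WT libraries had 0.0400 CPM with TSP1, 0.220 CPM with CD3+CD28 and 0.392 CPM with CD3+CD28+TSP1, and the CD47- libraries 0.660, 0.660 and 0.936 CPM. The lines did not overlap at 6 h, and the log2 fold change was 1.72 (SE 0.510, adjusted p = 0.00901), and overlapped at 1 and 3 h. The WT TSP1 library at 6 h is below the limit of 3 counts, so the size of this fold change is uncertain.

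Of the effectors, BAK1 was lower in CD47- at each time, and BAX was called as higher at 1 and 6 h but not at 3 h (0.27, SE 0.143, adjusted p = 0.135). BAK1 (chr6:33572547-33580293, minus strand) had a WT range of 15.95 to 25.9 CPM with a median of 20.7, and a CD47- range of 12.3 to 20.5 CPM with a median of 16.01. Its log2 fold change was −0.33 at 1 h (SE 0.0966, adjusted p = 0.00809), −0.35 at 3 h (SE 0.111, adjusted p = 0.0137) and −0.49 at 6 h (SE 0.110, adjusted p = 0.00108). The call at 3 h was lost without the CD47- library that stands apart (−0.26, adjusted p = 0.0875) or without the WT CD3+CD28+TSP1 library at 3 h (−0.31, adjusted p = 0.0594). BAK1 was lower in CD47- in 9 of 10 matched pairs. The untreated pair at 1 h was level, with 15.95 CPM in WT and 15.96 CPM in CD47-. The ranges of the lines overlapped for BAK1 at 1 h and not at 3 or 6 h. BAK1 overlaps GGNBP1 on the other strand.

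BAX (chr19:48954815-48961798, plus strand) had a WT range of 5.53 to 10.6 CPM with a median of 7.48, and a CD47- range of 6.95 to 12.6 CPM with a median of 8.70. It was higher in CD47- in 9 of 10 matched pairs. It was called at 1 h (log2 fold change 0.36, SE 0.124, adjusted p = 0.0216) and 6 h (0.35, SE 0.138, adjusted p = 0.0452), but not over all times (0.33, SE 0.134, adjusted p = 0.0551). With a block for the matched pairs the value over all times was 0.33 (adjusted p = 0.00442), and over 28 alternatives the adjusted p ran from 0.00442 to 0.310. The call at 6 h was lost in 11 of 26 alternatives, with an adjusted p of up to 0.202 without the WT CD3+CD28+TSP1 library at 6 h, and the call at 1 h in 4 of 26 alternatives, with an adjusted p of up to 0.0745.

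**Figure D3:**
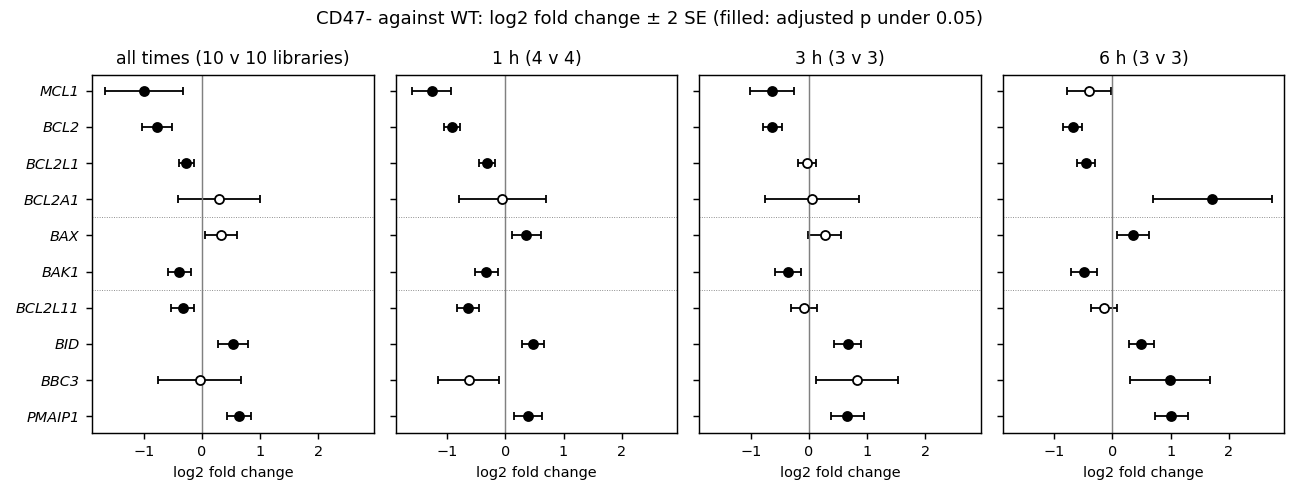
Log2 fold change of CD47- against WT for each member with bars of 2 SE, over all times and at 1, 3 and 6 h, filled where the adjusted p is under 0.05, with dotted lines between pro-survival members, effectors and BH3-only members. MCL1, BCL2, BCL2L1, BAK1 and BCL2L11 are left of 0 and BAX, BID and PMAIP1 right of 0 in all 4 panels. BCL2, BAK1, BID and PMAIP1 are filled in all 4 panels, while BBC3 moves from −0.64 at 1 h to 1.00 at 6 h.

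Of the BH3-only members, PMAIP1 and BID were higher in CD47- cells at every time. PMAIP1 (chr18:59899996-59904305, plus strand) was at 44.8, 55.6, 57.4 and 55.3 CPM in WT at 1 h (untreated, TSP1, CD3+CD28, CD3+CD28+TSP1) and at 68.3, 71.8, 71.5 and 67.4 CPM in CD47-. At 6 h WT had 36.2, 39.6 and 37.9 CPM (TSP1, CD3+CD28, CD3+CD28+TSP1) and CD47- had 77.6, 77.4 and 74.1 CPM. It was higher in CD47- in 10 of 10 pairs, and the ranges overlapped only through the CD47- library given CD3+CD28+TSP1 at 3 h (47.4 CPM, with 76.2 and 79.4 CPM in the other CD47- libraries at 3 h). The log2 fold change grew from 0.39 at 1 h (SE 0.122, adjusted p = 0.0125) to 0.66 at 3 h (SE 0.142, adjusted p = 0.000828) and 1.01 at 6 h (SE 0.143, adjusted p = 7.80e-06). Without the CD47- library that stands apart the value at 3 h was 0.89 (adjusted p = 1.09e-06). The call at 1 h was lost without the untreated WT library (0.31, adjusted p = 0.0507) and kept in the other 25 alternatives.

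BID (chr22:17734138-17774770, minus strand) links death receptors to mitochondria once caspase-8 has cut it. It was at 40.5, 50.6, 43.1 and 51.9 CPM in WT at 1 h (untreated, TSP1, CD3+CD28, CD3+CD28+TSP1) and at 72.2, 57.0, 64.1 and 65.5 CPM in CD47-. It was higher in CD47- in 10 of 10 pairs, and the lines did not overlap at any of the 3 times. For BID the log2 fold change was 0.47 at 1 h (SE 0.0971, adjusted p = 0.000426), 0.66 at 3 h (SE 0.112, adjusted p = 7.30e-05) and 0.50 at 6 h (SE 0.111, adjusted p = 0.000951), and these calls were kept in each of the 26 alternatives.

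BCL2L11 (chr2:111119378-111168444, plus strand) encodes BIM, which removes lymphocytes after growth factor loss. It was called between the lines at 1 h and not at 3 or 6 h. At 1 h WT had 37.3, 30.3, 28.9 and 30.8 CPM (untreated, TSP1, CD3+CD28, CD3+CD28+TSP1) and CD47- had 20.7, 21.4, 20.3 and 19.0 CPM, without overlap. The log2 fold change was −0.64 at 1 h (SE 0.0964, adjusted p = 1.39e-05), −0.09 at 3 h (SE 0.111, adjusted p = 0.559) and −0.15 at 6 h (SE 0.112, adjusted p = 0.286). It overlaps the noncoding gene MIR4435-2HG on the other strand.

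BBC3 (chr19:47220822-47232766, minus strand) was at low level and changed sides. At 1 h WT had 2.56, 4.37, 3.54 and 6.07 CPM (untreated, TSP1, CD3+CD28, CD3+CD28+TSP1) and CD47- had 3.47, 1.79, 2.15 and 3.23 CPM, with overlap. At 6 h WT had 0.959, 1.19 and 0.751 CPM (TSP1, CD3+CD28, CD3+CD28+TSP1) and CD47- had 1.32, 2.29 and 2.12 CPM, without overlap. The log2 fold change was −0.64 at 1 h (SE 0.261, adjusted p = 0.0508), 0.83 at 3 h (SE 0.349, adjusted p = 0.0597) and 1.00 at 6 h (SE 0.345, adjusted p = 0.0228). Its counts ran from 17 to 136 per library. The call at 6 h was lost without the WT libraries given CD3+CD28+TSP1 (0.83, adjusted p = 0.100) or TSP1 (1.00, 0.0547), without the CD47- libraries given CD3+CD28 (0.85, 0.0883) or CD3+CD28+TSP1 (0.91, 0.0702), and with limma voom (0.79, 0.101), with adjusted p from 0.00499 to 0.101 over 25 alternatives.

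By time, 8 members were called between the lines at 1 h, 5 at 3 h and 8 at 6 h, where 48.4%, 46.3% and 46.6% of all genes were called. Ranges of the lines did not overlap for 7 members at 1 h, 4 at 3 h and 9 at 6 h, where this held for 45.2%, 47.8% and 64.9% of all genes. The 6 h set, called and without overlap, held BCL2A1, BAX, BID, BBC3 and PMAIP1 on the higher side and BCL2, BCL2L1 and BAK1 on the lower side. MCL1 also did not overlap at 6 h but was not called.

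More members had a called change with time in WT than in CD47- cells. From 1 to 6 h in WT cells MCL1, BCL2, BCL2A1, BCL2L11, BBC3 and PMAIP1 fell and BAX, BAK1 and BID rose, so that 9 of 10 members were called where 53.4% of all genes were. In CD47- cells MCL1 and BCL2 fell and BAX, BAK1 and BID rose, so that 5 of 10 members were called where 53.9% of all genes were. Both effectors rose in both lines, and no pro-survival member was called as rising from 1 to 6 h in either line. The median change of the 4 pro-survival members was −1.26 in WT and −0.26 in CD47- on the log2 scale, where the median over all genes was −0.01 in each line. In WT the values were −2.13 for MCL1, −1.83 for BCL2A1, −0.69 for BCL2 and 0.13 for BCL2L1. In CD47- they were −1.27, −0.06, −0.45 and −0.01 in the same order. The WT median leans on BCL2A1, which had at most 12 counts in a WT library at 6 h.

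MCL1 mRNA fell from a mean of 1107 ± 248 CPM at 1 h (n = 4) to 421 ± 135 CPM at 3 h and 253 ± 14.7 CPM at 6 h (SD, n = 3 each) in WT cells. This was a log2 change of −1.40 at 3 h (SE 0.185, adjusted p = 7.17e-06) and −2.13 at 6 h (SE 0.191, adjusted p = 1.49e-08), a 4.38-fold fall. In CD47- cells it fell from 460 ± 35.95 CPM to 270 ± 39.9 CPM and 191 ± 5.40 CPM, a log2 change of −0.77 at 3 h (SE 0.181, adjusted p = 0.00245) and −1.27 at 6 h (SE 0.184, adjusted p = 7.97e-06). The 6 libraries at 6 h lay between 186 and 268 CPM, with the lines still separate. BCL2 fell by 0.69 in WT (SE 0.0761, adjusted p = 2.45e-07) and by 0.45 in CD47- (SE 0.0774, adjusted p = 5.50e-05) on the log2 scale between 1 and 6 h.

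BAX, BAK1 and BID rose in both lines, and their rises were not shown to differ between them. BAX rose by a log2 change of 0.55 in WT (SE 0.132, adjusted p = 0.00169) and 0.53 in CD47- (SE 0.129, adjusted p = 0.00162). BID rose by 0.52 (SE 0.104, adjusted p = 0.000267) and 0.55 (SE 0.103, adjusted p = 0.000147), and BAK1 by 0.47 (SE 0.102, adjusted p = 0.000616) and 0.31 (SE 0.104, adjusted p = 0.0150). The rise of BAK1 in CD47- was not called without the TSP1 library at 1 h (0.24, adjusted p = 0.0575) or the CD3+CD28+TSP1 library at 6 h (0.22, adjusted p = 0.114).

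BBC3 had a called fall in WT cells but not in CD47- cells. Its log2 change in WT was −2.02 at 3 h (SE 0.320, adjusted p = 5.31e-05) and −2.11 at 6 h (SE 0.318, adjusted p = 1.32e-05). It went from a mean of 4.13 ± 1.49 CPM (n = 4) to 1.02 ± 0.293 and 0.965 ± 0.218 CPM (SD, n = 3 each). The CD47- means were 2.66 ± 0.813, 1.80 ± 0.302 and 1.91 ± 0.516 CPM. PMAIP1 fell by 0.49 on the log2 scale in WT at 6 h (SE 0.135, adjusted p = 0.00448), BCL2L11 by 0.45 (SE 0.104, adjusted p = 0.00104) and BCL2A1 by 1.83 (SE 0.485, adjusted p = 0.00336). BCL2A1 had at most 12 counts in a WT library at 6 h.

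At 3 h fewer members had moved from 1 h. In WT cells MCL1 and BBC3 were called and in CD47- cells MCL1, BCL2L1 and BCL2L11, where 36.8% and 39.3% of all genes were called. The 2 rises in CD47- rest on the library that stands apart. BCL2L1 rose by 0.22 (SE 0.0743, adjusted p = 0.0220) with it and by 0.13 (adjusted p = 0.132) without it, and BCL2L11 by 0.33 (SE 0.104, adjusted p = 0.0178) with it and by 0.19 (adjusted p = 0.120) without it. The rise of BCL2L1 was also not called without the CD47- CD3+CD28 library at 1 h (0.21, adjusted p = 0.0576) or with no low-count filter (adjusted p = 0.137), and that of BCL2L11 not without the CD47- CD3+CD28+TSP1 library at 1 h (0.29, adjusted p = 0.0505). Without the library that stands apart, 4 members rather than 2 were called in WT at 3 h, and with treatment as a block 3 were.

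The time courses of the lines differed for 4 members between 1 and 6 h, MCL1, BCL2L11, BBC3 and PMAIP1, where 16.4% of all genes were called. In each the CD47- change was the higher one, by 0.86 for MCL1, 0.49 for BCL2L11 (SE 0.147, adjusted p = 0.0269), 1.63 for BBC3 (SE 0.432, adjusted p = 0.0132) and 0.62 for PMAIP1 (SE 0.187, adjusted p = 0.0280). Thus 3 of the 4 BH3-only members had a called fall in WT and none in CD47-, and the difference was called for each of them, with BBC3 called in each of 25 alternatives. The call for MCL1 was lost without the WT TSP1 library (0.83, adjusted p = 0.0585) or the CD47- CD3+CD28 library (0.84, 0.0514) at 6 h. The call for BCL2L11 was lost without the CD47- CD3+CD28+TSP1 library at 1 h (0.46, adjusted p = 0.0539) or the CD3+CD28+TSP1 library at 6 h of WT (0.47, 0.0656) or CD47- (0.40, 0.0958). The call for PMAIP1 was lost without the CD47- CD3+CD28+TSP1 library at 1 h (0.60, 0.0506), the WT CD3+CD28+TSP1 (0.62, 0.0586) or TSP1 library (0.59, 0.0695) at 6 h, or the CD47- CD3+CD28 library at 6 h (0.61, 0.0581). Between 1 and 3 h only BCL2L11 differed (0.56, SE 0.147, adjusted p = 0.0350), where 4.45% of all genes were called, and without the CD47- library that stands apart its value was 0.42 (adjusted p = 0.0633). That call was lost in 7 of 26 alternatives, with adjusted p from 0.00906 to 0.0835.

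Activation on CD3 and CD28 was compared with cells not plated on the antibodies, within time points. At 3 and 6 h the only such library of each line was given TSP1 alone, so activation and TSP1 are partly mixed at these times. In WT cells MCL1 was the one member called, higher by 0.53 on the log2 scale with activation (SE 0.104, adjusted p = 0.0296), where 65 genes (0.398%) were called. CD3+CD28 gave 1.55 times the untreated level of MCL1 at 1 h, and CD3+CD28+TSP1 gave 1.41, 1.85 and 1.12 times the level with TSP1 alone at 1, 3 and 6 h. All 3 of these ratios were above 1, and the last was the smallest. In CD47- cells the ratios were 1.17 for CD3+CD28 over untreated and 1.07, 0.800 and 0.978 for CD3+CD28+TSP1 over TSP1, the 0.800 at 3 h being from the library that stands apart. At 3 h CD3+CD28 gave 1.07 times the TSP1 level in these cells. The log2 change with activation was 0.04 in CD47- (SE 0.102, adjusted p = 0.987), with an interval of 2 SE from −0.16 to 0.25, and 0.10 without the library that stands apart.

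The call for MCL1 in WT cells is close to the threshold. It was lost without any one of 7 WT libraries or 2 CD47- libraries, with log2 changes from 0.38 to 0.53 and an adjusted p of up to 0.429 without the WT TSP1 library at 3 h. It was also lost with time effects shared by both lines (0.47, adjusted p = 0.971) and from CD3+CD28+TSP1 against TSP1 alone (0.50, adjusted p = 0.389). The 7 WT libraries were the 4 at 1 h and the 3 at 3 h, and the CD47- libraries were CD3+CD28+TSP1 at 1 h and CD3+CD28 at 6 h. In CD47- cells 0 genes (0%) were called by edgeR for activation, with 375 genes at an unadjusted p under 0.05, and 0 by DESeq2 and by limma voom. The line difference in the activation of MCL1 was −0.48 (SE 0.145, unadjusted p = 0.00388, adjusted p = 0.745), so the lines were not shown to differ, but with no low-count filter it was called (−0.49, adjusted p = 0.000492). In that comparison 1 gene (0.00612%) was called among all genes, and it was no member.

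TSP1 added to activated cells changed no member by the test. By edgeR 0 genes (0%) were called in either line, with 366 genes in WT and, the library that stands apart included, 1771 in CD47- cells at an unadjusted p under 0.05, and 0 genes for the line difference, with 393. With DESeq2 1 gene was called in WT cells, 0 in CD47- cells and 0 for the line difference, and limma voom called 0 in all of them. MCL1 with CD3+CD28+TSP1 was at 0.960, 0.966 and 1.07 times its level with CD3+CD28 in WT cells at 1, 3 and 6 h. In CD47- cells the ratios were 0.905, 0.746 and 0.946, the lowest in the library that stands apart. The interval of 2 SE for the log2 effect of TSP1 on MCL1 was −0.27 to 0.25 for WT cells, against −0.47 to 0.05 for CD47- cells with the library that stands apart included.

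The isoform table showed which transcripts carried these levels. Of 94 isoforms of the members, 42 passed the low-count filter, and 9 were called between the lines, where 15.1% of 55450 isoforms were called. Lower in CD47- were BAK1-201, all 3 tested isoforms of BCL2 and MCL1-203, and higher were 2 isoforms of BID, 1 of BAX and PMAIP1-202. The main isoforms of BAK1 (BAK1-201, 98.9% of the gene in WT) and of PMAIP1 (PMAIP1-202, 98.2%) followed their genes, with log2 fold changes of −0.43 (SE 0.107, adjusted p = 0.00756) and 0.67 (SE 0.109, adjusted p = 0.000146). BID-211, at 66.0 ± 9.79% of BID in WT and 71.7 ± 8.89% in CD47- (SD, n = 10), was higher in CD47- by 0.69 (SE 0.198, adjusted p = 0.0207), while BID-203 had a value of −0.06 (SE 0.176, adjusted p = 0.869). The share of BID-203 was 16.7 ± 4.83% in WT and 10.96 ± 2.98% in CD47-.

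Among the 3 tested isoforms of BCL2, BCL2-201 had the lowest fold change. BCL2-201 has 3 exons and encodes the full reading frame, as does BCL2-202 with its first intron kept, whereas BCL2-203 is a single-exon transcript that ends in the long intron of the gene. The log2 fold change of BCL2-201 was −1.301 (SE 0.116, adjusted p = 5.29e-08), against −0.51 for BCL2-202 (SE 0.127, adjusted p = 0.00778) and −0.55 for BCL2-203 (SE 0.171, adjusted p = 0.0341). The share of BCL2-201 was 33.6 ± 2.80% in WT and 23.3 ± 5.15% in CD47- (SD, n = 10), that of BCL2-202 was 21.4 ± 2.67% and 25.3 ± 2.61%, and that of BCL2-203 was 44.1 ± 2.76% and 50.3 ± 6.54%. The ranges of BCL2-201 overlapped, 28.2% to 36.4% in WT against 17.8% to 32.7% in CD47-, with the highest CD47- shares at 6 h. The usage test, which compares an isoform with the rest of its gene, did not call BCL2-201 (adjusted p = 0.298). The call for BCL2-203 was lost without any one of 10 libraries, with an adjusted p of up to 0.0689.

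MCL1 was divided among several overlapping transcripts. MCL1-207, which lacks the middle of the first exon, took 55.5 ± 11.5% of MCL1 counts in WT and 54.9 ± 11.1% in CD47-, and the full-length MCL1-202 took 18.6 ± 7.73% and 15.8 ± 9.78% (SD, n = 10). The split between these 2 was uneven from library to library, from 0.325% to 34.5% for MCL1-202 in CD47-. At 1 h MCL1-203, which keeps the first intron, took 7.04% to 7.42% in WT against 10.3% to 12.04% in CD47-, without overlap, and MCL1-206, which keeps the second, 4.91% to 6.04% against 8.21% to 10.96%. By 6 h MCL1-203 had means of 14.9% in WT and 12.5% in CD47-, and MCL1-206 of 12.8% and 15.1%. The log2 fold change of MCL1-203 was −0.68 (SE 0.208, adjusted p = 0.0308), a call lost without any one of 7 libraries with an adjusted p of up to 0.0668, among them the library that stands apart (−0.64, adjusted p = 0.0501), and no isoform of MCL1 was called in the usage test (gene adjusted p = 1.00).

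MCL1-201, the form that skips the exon 2 shown above, was a minor isoform and was singled out after its values were seen. Its pooled share of MCL1 counts was 1.93% in WT (exact 95% interval 1.86 to 2.00%) and 1.93% in CD47- (1.83 to 2.03%), with intervals that cover counting error only. At 3 h the shares in the 3 CD47- libraries were 3.23% to 4.62% and in the 3 WT libraries 1.79% to 2.52%. At 6 h they were 0.371% to 0.573% in CD47- and 0.588% to 1.06% in WT. MCL1-201 was thus at its lowest share at 6 h in both lines. BCL2L1-202, the BCL-XS form, also singled out after its values were seen, had pooled shares of 4.03% of BCL2L1 in WT (3.69 to 4.40%) and 2.94% in CD47- (2.62 to 3.29%), but its share in single libraries ran from 0 to 7.98%, and its log2 fold change of −0.65 was not called (SE 0.769, adjusted p = 0.653).

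**Figure D4:**
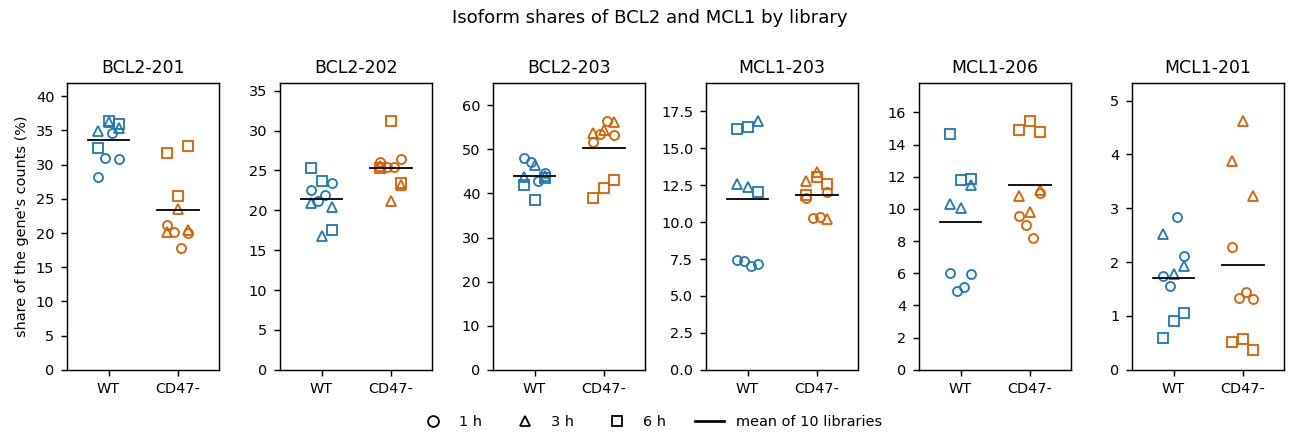
Share of the gene's counts (percent, linear axes from 0) taken by 3 isoforms of BCL2 and 3 of MCL1 in each library, with WT in blue, CD47- in orange, circles for 1 h, triangles for 3 h, squares for 6 h and a black bar at the mean of 10 libraries. BCL2-201 is lower in CD47- with means of 33.6% and 23.3%, MCL1-203 is lowest in WT at 1 h, and MCL1-201 is highest in CD47- at 3 h.

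In the usage test 1 member, BID, was called of the 9 with at least 2 isoforms tested (gene adjusted p = 0.0464), where 5.42% of 10103 genes were called, through 1 isoform that holds under 10% of the gene. On simulated data this test called more unchanged genes than its threshold allows, so a call this close to the threshold is uncertain. The number of member isoforms called in this test fell from 1 to 0 without the block for matched pairs and in 5 of 10 fits that left out a matched pair, and it was 2 in another of them, while RSEM's error in assigning reads to isoforms is not in the test. BAX, BBC3 and BCL2L11 were spread over several isoforms, and the largest of them held a mean of 28.0%, 44.02% and 56.2% in WT (BAX-201, BBC3-202 and BCL2L11-204).

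Promoters of 9 of the 10 members, 250 bases before to 50 bases after the start site, were found in the RefSeq table (GRCh38.p14), and MCL1 was the one not found. The 4 with a single entry among the 5 members that were higher in CD47- at 6 h are printed as members that shared this difference, though BAX rose and the other 3 fell from 1 to 6 h in WT, with capitals for matches to the E-box, AP-1 and STAT motifs described next, of which PMAIP1 has none. BAX is at chr19:48954625-48954924 on the plus strand, BBC3 at chr19:47232618-47232917 on the minus strand, PMAIP1 at chr18:59899746-59900045 on the plus strand and BCL2A1 at chr15:79971147-79971446 on the minus strand.
BAX promoter: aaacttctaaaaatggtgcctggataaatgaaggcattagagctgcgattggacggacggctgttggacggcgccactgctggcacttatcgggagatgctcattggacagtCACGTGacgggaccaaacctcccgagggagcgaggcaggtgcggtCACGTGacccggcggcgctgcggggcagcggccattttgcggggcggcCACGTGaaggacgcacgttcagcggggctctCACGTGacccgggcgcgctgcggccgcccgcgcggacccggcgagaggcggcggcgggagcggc
BBC3 promoter: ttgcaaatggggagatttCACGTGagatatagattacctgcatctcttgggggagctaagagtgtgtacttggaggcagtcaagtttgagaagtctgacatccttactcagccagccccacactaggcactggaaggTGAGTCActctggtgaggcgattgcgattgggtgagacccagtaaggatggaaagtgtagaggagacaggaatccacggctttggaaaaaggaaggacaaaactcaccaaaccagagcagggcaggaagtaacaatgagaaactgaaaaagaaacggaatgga
PMAIP1 promoter: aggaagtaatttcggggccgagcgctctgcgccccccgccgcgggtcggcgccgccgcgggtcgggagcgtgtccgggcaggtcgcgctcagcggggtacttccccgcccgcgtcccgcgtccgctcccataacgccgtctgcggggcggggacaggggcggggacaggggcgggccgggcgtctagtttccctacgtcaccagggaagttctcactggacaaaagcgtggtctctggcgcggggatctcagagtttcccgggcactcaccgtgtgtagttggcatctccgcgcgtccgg
BCL2A1 promoter: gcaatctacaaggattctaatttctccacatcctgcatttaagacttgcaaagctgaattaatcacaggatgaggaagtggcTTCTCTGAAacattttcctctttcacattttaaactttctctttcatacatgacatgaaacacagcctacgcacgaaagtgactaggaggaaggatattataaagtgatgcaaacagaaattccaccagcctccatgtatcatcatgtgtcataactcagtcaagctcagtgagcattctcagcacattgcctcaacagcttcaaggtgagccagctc

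Motifs were searched on both strands in all 35116 promoters of the table. The E-box CACGTG, in 7.26% of promoters, matched 4 times in BAX, with first bases −138, −93, −45 and −14 relative to the start site, and once in BBC3 at −232. The AP-1 site TGANTCA, in 7.71% of promoters, matched once in BBC3 at −113. The STAT site TTCNNNGAA, in 7.66%, matched once in BCL2A1 at −168, and the ETS site CCGGAAGT, in 4.14%, once in an entry of BCL2L1 at 9. The GC box GGGCGG, in 45.0%, matched 4 times in PMAIP1 and 2 times in BAX, and also matched BCL2L11, BAK1, BCL2L1 and BID. The cAMP response element TGACGTCA (1.85%) matched no member promoter in the table. The NF-κB site was searched in a narrow form with most letters fixed (1.91%), which also matched none. Other forms of the NF-κB site were not searched, so their absence, including from BCL2A1, is not shown. The half-site TGACG (24.6%), part of the cAMP response element, matched BAX, BCL2, BCL2L1 and PMAIP1, and in BAX it overlaps an E-box. The E-box also matched 2 of the 5 entries of BID, which overlap each other. No motif in the form searched was shared by all 4 printed promoters, and a match describes letters and not a bound site.

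Related genes were taken from lists made with earlier results of these data known. Of 13 other BCL2 family genes 11 were tested, with 2 higher and 4 lower in CD47- over all times, beside 19.8% and 20.6% of all genes. BOK, an effector-like member, was higher by 1.66 (SE 0.352, adjusted p = 0.000584), with means of 0.341 ± 0.183 CPM in WT libraries and 1.101 ± 0.634 CPM in CD47- libraries (SD, n = 10), and BCL2L13 was the other one. Lower were the BH3-only genes BMF (−0.63, SE 0.188, adjusted p = 0.0103) and BAD (−0.55, SE 0.181, adjusted p = 0.0182), the pro-survival BCL2L2 (−0.60, SE 0.199, adjusted p = 0.0200) and BCL2L12 (−0.29, SE 0.0936, adjusted p = 0.0171), named after their values were seen. BMF averaged 13.5 ± 2.61 CPM in WT against 8.72 ± 3.43 CPM in CD47-.

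Downstream of mitochondria 3 of 15 genes were called over all times, where 40.4% of all genes were. CASP9, the initiator caspase of this pathway, was higher by 0.29 (SE 0.107, adjusted p = 0.0345), DIABLO, which relieves caspase inhibition, by 0.20 (SE 0.0562, adjusted p = 0.00672), and BIRC5 (survivin) was lower (−0.43, SE 0.0950, adjusted p = 0.000970), all named after their values were seen. APAF1, CYCS and XIAP were not called over all times, but at 1 h XIAP (0.18, adjusted p = 0.00562) and CYCS (−0.27, adjusted p = 0.0247) were. Of 11 genes that control the turnover of MCL1 and BIM proteins 2 were called, both lower, where 20.6% of all genes were lower. These were USP9X, a deubiquitinase that stabilizes MCL1 protein (−0.80, SE 0.120, adjusted p = 1.16e-05), with 193 ± 37.8 CPM in WT against 111 ± 21.1 CPM in CD47-, and the kinase MAPK8 (−0.14, SE 0.0543, adjusted p = 0.0422), again named after their values were seen. HUWE1 and FBXW7, ligases for MCL1, were not called over all times.

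Of 14 transcription factors that act on BCL2 family genes 13 were tested, with 4 higher and 3 lower, where 19.8% of all genes were higher and 20.6% lower. STAT5A, which with STAT5B relays cytokine signals to BCL2L1 and MCL1, averaged 19.7 ± 3.37 CPM in WT against 107 ± 24.0 CPM in CD47- (SD, n = 10), with a fitted difference of 2.44 on the log2 scale (SE 0.130, adjusted p = 7.39e-13). STAT5B averaged 47.7 ± 11.2 against 116 ± 31.2 CPM, a difference of 1.29 (SE 0.156, adjusted p = 5.56e-07). No library of one line overlapped the other for either gene. The medians were −0.18, 0.10, −0.10 and 0.09 for the 4 lists in the order given, against −0.01 over all genes.

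**Figure D5:**
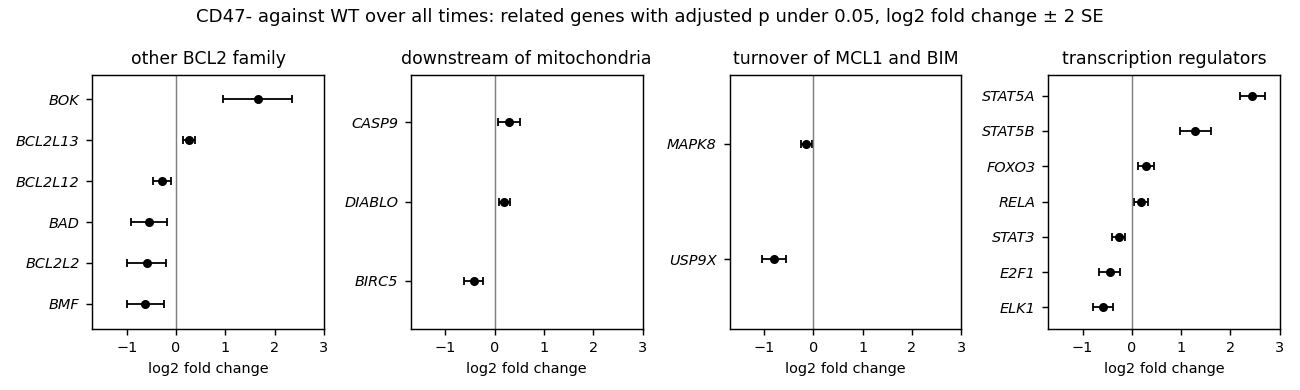
Log2 fold change of CD47- against WT over all 20 libraries with bars of 2 SE for the genes of 4 lists whose adjusted p is under 0.05, and no gene that was not called. BOK, STAT5A and STAT5B lie more than 1 above 0, and USP9X, at −0.80, is the lowest of its list.

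Members varied together or in opposite directions over the 20 libraries, given as a description since libraries share line and time. The 5 strongest values of Pearson's r of log2 CPM were −0.93 for BCL2 with BID, −0.86 for BCL2 with BAX, −0.84 for BCL2L1 with PMAIP1, 0.84 for BAX with BID and 0.82 for BCL2 with BCL2L11. Among the 10000 genes compared, those with a pattern most like MCL1 were FAM53C (r = 0.985), FBXO33 (0.972) and SLC38A2 (0.969). Those most like BCL2 were RRM2 (0.973), TRIM52 (0.971) and CEMIP2 (0.967), and those most like PMAIP1 were HSPA6 (0.927), EIF2S2 (0.926) and SARS1 (0.923).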

How the data were processed

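RNA-seq of 20 libraries was analysed from gene and isoform tables. The authors deposited unnormalized expected counts from RSEM 1.3.3. Before that step adapters were removed (Cutadapt 1.18) and alignment was to GRCh38 (STAR 2.4.2a), with versions as in the submitters' processing notes. The strand setting is not given in the sources used here, and 2 columns of no sample in the tables were not used. Totals of 16107921 to 31737616 counts set a limit of 3 counts at 0.0979 to 0.156 CPM. This limit and the exact intervals of pooled isoform shares cover counting error only, whereas intervals of 2 SE come from the edgeR fits and include the spread between libraries.

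Expected counts were rounded, filtered with filterByExpr, grouped by line, at a minimum count of 10 and a minimum total of 15, and tested with the quasi-likelihood F test of edgeR 4.0.16 in R 4.3.3, with TMM factors and Benjamini-Hochberg adjustment. The SE was taken as the absolute log2 fold change divided by the square root of the F statistic of its test. The line comparison had line as its only term, so its SD and SE include the spread between treatments and times. Lines at each time, times within lines and their difference came from 1 model with a coefficient per line and time. Activation and TSP1 were fitted with time in each line. Isoforms were tested in the same way, and isoform usage with diffSpliceDGE and a block for matched pairs. TPM used the isoform lengths of a GENCODE annotation of the same build, and log2 values for correlations used CPM plus 0.5.

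When the libraries of the 2 lines were paired by treatment and time, each of the 10 pairs deviated together from the line means, with correlations of 0.125 to 0.651. Changes with time common to both lines are part of these values, so they do not show a pairing by treatment. Alternatives were DESeq2 1.42.0, limma 3.58.1 voom with quantile normalization, upper-quartile factors, other low-count filters, a block for pairs or treatment, subsets of pairs and each library left out. Scripts were tested on simulated data, where the usage test called more unchanged genes than its threshold allows. The members and lists were chosen with earlier results of these data known. All members are named. Of other lists, genes called with an absolute log2 fold change of at least 1 are named, at most 10 by smallest p, with defining markers. Only some of the isoforms with a mean share of at least 10% in either line are named. Those left out include BCL2L1-201, BCL2L1-210 and the called isoform of BAX. The 3 genes most correlated with MCL1, BCL2 and PMAIP1 are named. Other genes are named for their role or, where said, after their values were seen. Some genes of the lists are counted but not reported here.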

Additional observations from a re-analysis of the deposited data

Results flagged for a closer look

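For 5 of 40 groups of libraries checked, the extreme library lay further from the rest than Dixon's 95% critical value allows. A chance rate of about 1 in 20 holds only for independent values from 1 population. These groups share libraries and mix treatments, and those of 10 libraries also mix times, so that rate does not apply here. For 3 of the 5 groups the extreme library was the CD47- library given CD3+CD28+TSP1 at 3 h. Its gap took 0.586 of the CD47- range for BCL2L1 (53.3 CPM, the highest), 0.574 for BCL2L11 (30.6 CPM, the highest) and 0.627 for PMAIP1 (47.4 CPM, the lowest), against a critical value of 0.466 for 10 libraries. The CD47- library given CD3+CD28 at 3 h was the highest for BCL2A1 (1.70 CPM), with a gap of 0.571 of the range. The untreated WT library was the lowest of the 4 WT libraries at 1 h for PMAIP1 (44.8 CPM), with a gap of 0.837 against a critical value of 0.829.

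The change with time differed between the lines by a tested interaction for 4 members. Between 1 and 6 h the CD47- change was higher than the WT change by 1.63 on the log2 scale for BBC3, 0.86 for MCL1, 0.62 for PMAIP1 and 0.49 for BCL2L11, and between 1 and 3 h by 0.56 for BCL2L11. The part of other differences between the 2 lines in these values was not tested.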

How the results depend on the processing

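Of the members' line comparison, 7 calls became 4 with the 6 activated pairs alone and 2 with the 4 unactivated pairs alone, and ran from 6 to 8 with 1 library left out. All genes called fell from 6596 to 4067 and 2706 in these subsets, which hold fewer libraries. BBC3, not called, turned from −0.04 to 0.23 with limma voom, 0.23 with the replicate block of matched pairs and 0.023 in activated pairs, and ran from −0.14 to 0.27 with 1 library left out. The replicate block changed no other member's call in the line comparison than that of BAX (0.33, adjusted p = 0.00442), and with treatment as a block 3 members were called from 1 to 3 h in WT, where 2 were without it.

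Members called at 3 h ran from 3 to 6 with 1 library left out, those from 1 to 3 h were 2 to 4 in WT and 1 to 3 in CD47-, and those that differed between the lines from 0 to 2 (1 to 3 h) and from 2 to 5 (1 to 6 h). Under the stricter filter of 1 CPM in every library 1 member was called from 1 to 3 h in WT. BBC3 does not pass that filter and was not tested under it. The line difference from 1 to 3 h held 2 members with DESeq2, 0 with limma voom and 3 with no low-count filter, and 727 genes overall became 1187 with DESeq2 and 1503 with no filter.

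Activation in WT held 0 members with CD3+CD28+TSP1 against TSP1 alone, 0 with shared time effects and 0 to 1 with 1 library left out, and its 65 genes became 140 with DESeq2, 302 with no filter, 15 against TSP1 alone and 5 with shared time effects. MCL1 activation in CD47- turned from 0.04 to −0.084 against TSP1 alone. With no filter 1 member, MCL1 (−0.49), was called for the line difference in activation, and 218 genes, against 1 gene as reported, 15 with DESeq2, 6 with limma voom and 0 with shared time effects. With no filter 105 genes were called for activation in CD47-, 84 and 401 for TSP1 in WT and CD47-, and 140 for their difference. Isoform usage held 0 member isoforms with no replicate block, 3 under the stricter filter and 0 to 2 with a pair left out. Apart from the removal of BBC3 by the stricter filter, the cause of these changes was not tested. Depth limits BCL2A1 and BBC3, and TSP1 effects rest on 3 libraries a group.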
